A study of Mus musculus with 6 samples.

Results

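The genes described here are the histone genes detected in polyadenylated RNA of 4T1 cells. They were taken as every gene whose symbol in the GENCODE M21 mouse annotation begins with Hist1h to Hist4h, the replication-dependent genes, or with H1f, H2af or H3f, the variant genes, and which was above 0 FPKM in at least 1 library. FPKM is a fragment count divided by the length of the transcript and by the mapped fragments of the library. The rule gave 82 of the 28418 genes in the deposited tables, 65 replication-dependent and 17 variant. A further 2 symbols, Hist2h2bb and Hist2h3b, were in the tables at 0 FPKM in every library.

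4T1 is a mouse mammary carcinoma line, labelled as epithelial cells and described as triple-negative. One group of 3 libraries came from cells cultured for 35 passages with 100 nM PFOS, the fluorinated surfactant perfluorooctane sulfonate, and the other group of 3 from cells carried for 35 passages at 0 nM PFOS. The labels name no vehicle and no genetic change, and they do not state that replicates are independent cultures, so each p-value measures only the spread between these libraries, which may be technical. Library sums were 306735 to 309381 FPKM at 100 nM and 306716 to 308830 FPKM at 0 nM, and 21042 to 21591 genes were above 0 in a library. Replicate 3 at 100 nM stood apart on the first principal component, at 19.4 against -9.57 to 0.06 in the other 5 libraries. Of 12 leukocyte markers, 6 reached a mean of 1 FPKM. Their 12-gene sums were 130, 259 and 283 FPKM at 100 nM and 168, 156 and 130 FPKM at 0 nM. Ms4a1 was at 0 in every library, and Gzmb was at 0, 0 and 14.9 FPKM at 100 nM and at 0, 0 and 0.05 FPKM at 0 nM. The 4 epithelial markers Epcam, Krt8, Krt18 and Cdh1 were present in every library and summed to 671 to 716 FPKM at 100 nM and 646 to 647 FPKM at 0 nM. The 6 fibroblast markers summed to 5.71 to 8.37 FPKM at 100 nM and 5.32 to 5.57 FPKM at 0 nM, and the 3 endothelial markers to at most 0.39 FPKM in any library. Their part in the results was not tested.

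Replication-dependent histone genes are transcribed in S phase, lie mostly in clusters and mostly have no introns. Most of their mRNAs end not in a poly(A) tail but just after a short stem-loop, which is bound by the stem-loop binding protein and trimmed with the U7 small nuclear ribonucleoprotein. Variant histone genes are transcribed throughout the cell cycle, mostly contain introns and give polyadenylated mRNAs. The libraries were made from RNA selected on oligo(dT) beads, per the labels' protocols, so a replication-dependent histone mRNA without a poly(A) tail is not captured by its tail, and the levels below are those of the captured RNA rather than of all histone mRNA. In RNA of a whole culture, fewer cells that express a gene and less RNA per cell cannot be told apart.

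The stem-loop was looked for because it is the feature that sets the replication-dependent mRNAs apart. A 16-base pattern, GG, 2 bases of any kind, CTTTT, 1 of any kind, AG, 2 of any kind and CC, was searched on the strand of each annotated M21 transcript. It was present in 42 of the 62 protein-coding replication-dependent genes and in 1 of the 17 variant genes, against 78 of 21951 protein-coding genes in the annotation (0.355%), of which 45 are histone genes by the same symbols and 33 are not. On the opposite strand it was found in 22 protein-coding genes (0.1002%). The sites below, read from the M21 transcripts (GRCm38), were chosen as the carrier with the highest FPKM among the replication-dependent genes of each histone type, with an example of each rarer form that these leave out except the main H4 form, and capitals mark the pattern.

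Hist1h1c: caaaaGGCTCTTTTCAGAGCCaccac
Hist1h2ae: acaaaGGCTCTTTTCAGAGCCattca
Hist2h2ac: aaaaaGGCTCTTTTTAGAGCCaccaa
Hist1h2bk: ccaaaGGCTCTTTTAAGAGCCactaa
Hist1h3c: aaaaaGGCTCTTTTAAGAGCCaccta
Hist1h4i: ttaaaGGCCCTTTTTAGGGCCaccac
Hist1h4b: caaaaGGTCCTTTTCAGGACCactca
H2afx: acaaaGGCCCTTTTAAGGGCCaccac

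The 16 bases in capitals lie at chr13:23739512-23739527 (plus strand) in Hist1h1c, chr13:23570668-23570683 (minus) in Hist1h2ae, chr3:96220418-96220433 (minus) in Hist2h2ac, chr13:22036300-22036315 (plus) in Hist1h2bk, chr13:23745047-23745062 (minus) in Hist1h3c, chr13:22040966-22040981 (minus) in Hist1h4i, chr13:23757366-23757381 (plus) in Hist1h4b and chr9:44335240-44335255 (plus) in H2afx. The form in Hist1h1c, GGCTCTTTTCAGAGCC, was the most common, in 25 of the 43 members with the pattern, and was found in H1, H2A, H2B and H3 genes but in no H4 gene. The form in Hist2h2ac was found in no other member. All 11 H4 carriers had another stem. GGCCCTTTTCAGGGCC occurred in 7 H4 genes, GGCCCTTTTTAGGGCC in Hist1h4i and Hist2h4, and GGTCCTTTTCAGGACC in Hist1h4b and Hist1h4j. The only variant gene with the pattern was H2afx, which encodes H2A.X, the variant phosphorylated at DNA breaks. Its annotated transcript continues for 822 bases beyond the pattern, and its mRNA is known as one that can end either at the stem-loop or at a poly(A) site. A match shows only that these letters are in the annotated transcript, and the lack of a match does not show that a gene has no stem-loop. Several transcripts without the pattern are annotated to little beyond the coding sequence. Examples are Hist1h3h, with 408 coding bases of 411, and Hist1h4k, with 309 of 312.

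Replication-dependent histone RNA was low in every library. The 65 genes had a median of 0.722 FPKM over the 6 libraries, with a range of 0.028 to 10.9, and 57 of them were above 0 in all 6 libraries. Together they made up 0.026% of all FPKM. The 17 variant genes had a median of 3.45 FPKM, their 11 protein-coding members a median of 21.7, and the highest, H1f0, reached 268 FPKM. Variant genes made up 0.305% of all FPKM. A mean of at least 1 FPKM, the level required for testing, was reached by 27 of the 65 replication-dependent and 11 of the 17 variant genes.

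Assignment of reads limits these levels. A median of 60.2% of the 31-base words of a replication-dependent gene also occurred in transcripts of other genes, and 40 of the 65 shared more than 50%. For variant genes the median was 11.2%. A word and its reverse complement counted as the same word, so part of the sharing can be with a gene on the other strand. How reads that fit several genes were divided is not given in the sources used here, so values of genes with a high share are uncertain between the genes that share words, family members among them.

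The highest replication-dependent gene was Hist1h1c, which encodes the linker histone H1.2 and shared 11.4% of its words. It had 10.80, 10.01 and 10.95 FPKM at 100 nM and 11.16, 11.39 and 11.00 FPKM at 0 nM. The libraries at 100 nM were all below those at 0 nM, by little in the nearest pair, and the limma adjusted p was 0.345. The other linker genes were far lower. Hist1h1b, Hist1h1d and Hist1h1e, for H1.5, H1.3 and H1.4, averaged 0.347, 0.103 and 0.353 FPKM at 100 nM and 0.557, 0.073 and 0.320 FPKM at 0 nM. Hist1h1a was above 0 in 2 libraries.

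Next in level came Hist1h4i, which encodes H4, at 5.56, 5.54 and 5.64 FPKM at 100 nM and 3.86, 4.81 and 5.36 FPKM at 0 nM. Hist1h3h, for H3, had 4.70, 5.06 and 3.09 FPKM at 100 nM and 4.05, 4.42 and 4.52 FPKM at 0 nM, with 94.2% of its words shared. Hist1h2ag, for H2A, had 4.22, 2.34 and 3.09 FPKM at 100 nM and 2.90, 2.77 and 3.06 FPKM at 0 nM. In Hist1h3h and Hist1h2ag the groups overlapped, and the 3 libraries at 100 nM were more spread than those at 0 nM. Just above the level required for testing, Hist2h2be had 1.00, 1.12 and 1.46 FPKM at 100 nM and 0.85, 0.86 and 1.07 FPKM at 0 nM, and Hist1h2ao had 1.11, 1.25 and 0.97 FPKM at 100 nM and 1.03, 1.55 and 1.02 FPKM at 0 nM. Just below it, Hist1h2ad averaged 0.947 FPKM at 100 nM and 0.850 FPKM at 0 nM, Hist1h2al 1.06 and 0.720 FPKM, and Hist1h3d 0.827 and 0.803 FPKM, each pair with the mean at 100 nM first.

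The annotated 3' structure was set beside the level. The 21 protein-coding genes with at least 100 annotated bases after the stem-loop pattern had a median of 0.337 FPKM, but this group includes Hist1h1c, the highest of all, with 840 bases after it. The 21 genes whose transcript stops within 100 bases had a median of 0.898 FPKM, and the 20 without the pattern in an annotated transcript had a median of 1.15 FPKM. The last group mixes transcripts annotated to little beyond the coding sequence, such as Hist1h3h, with long ones, such as Hist2h2be at 2620 bases. The median annotated lengths of these groups were 1261, 482 and 411 bases, and FPKM divides by length, so the order is a description of the tables as deposited. By position, the 24 genes at chr13:21715763-22043676 had a median of 1.47 FPKM and the 29 at chr13:23531050-23934156 a median of 0.593 FPKM. The 7 on chromosome 3 (chr3:96219865-96263311) had a median of 0.395 FPKM.

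The question put to these genes was whether their captured RNA differed between cells grown with and without PFOS. No replication-dependent histone gene passed the test. Over all genes, limma on log2(FPKM + 1) with Benjamini-Hochberg adjustment called 487 of 11741 (4.15%) at an adjusted p under 0.05, 198 higher (1.69%) and 289 lower (2.46%) at 100 nM. Among the 27 replication-dependent genes tested it called 0, and with no filter on low values, where all 65 entered the fit, it also called 0. At an unadjusted p under 0.05 there were 5 of 27 (18.5%), all higher, against 20.7% of all genes, a share near the background. The groups did not overlap in 7 of the 27 (25.9%), 5 higher and 2 lower, against 26.9% of all genes, with 13.7% higher and 13.3% lower. The median difference was 0.04 on the log2 scale, with a range of -0.29 to 0.42, against 0.01 for all genes tested. The median SE was 0.120 for these genes and 0.047 for all genes tested, which limits the size of difference that could be detected.

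**Figure D1:**
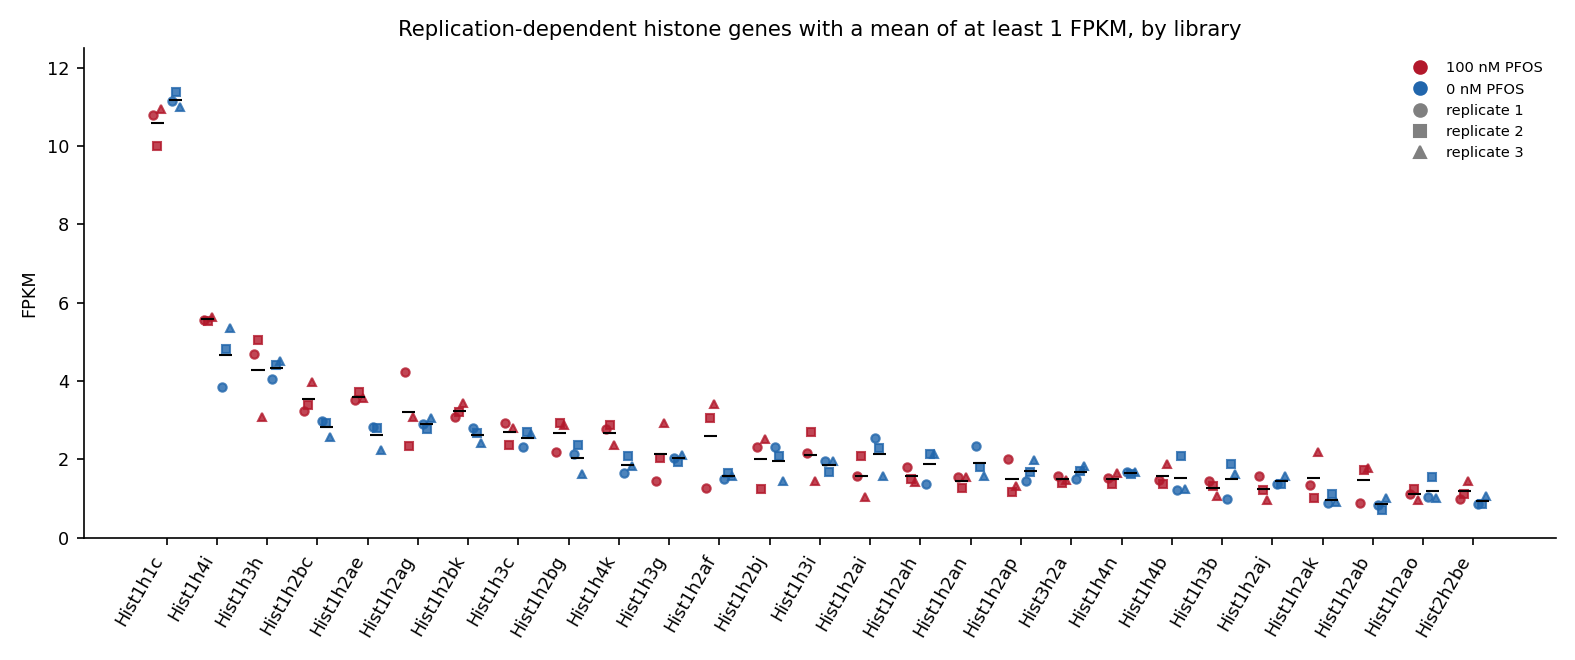
FPKM (linear axis) of the 27 replication-dependent histone genes that averaged 1 FPKM or more, ordered by mean. Each point is a library, with 100 nM PFOS in red to the left of 0 nM PFOS in blue, and black lines are group means. Hist1h1c stands near 11 FPKM in both groups, all other genes lie under 6 FPKM, and no gene passed the test.

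The 2 genes with the smallest p-values were Hist1h2ae, for H2A, and Hist1h4k, for H4. Hist1h2ae had 3.51, 3.71 and 3.57 FPKM at 100 nM and 2.83, 2.81 and 2.24 FPKM at 0 nM. Every library at 100 nM was above every library at 0 nM, and the difference of 0.35 ± 0.07 on the log2 scale (SE) had an adjusted p of 0.0549 in limma. Hist1h4k had 2.78, 2.87 and 2.36 FPKM at 100 nM and 1.66, 2.09 and 1.83 FPKM at 0 nM, again without overlap, with a difference of 0.36 ± 0.08 and an adjusted p of 0.0654 in limma. When protein-coding genes alone were fitted, these adjusted p-values became 0.0378 and 0.0447, so both genes sit at the threshold. Hist1h2ae shared 47.9% and Hist1h4k 86.2% of their words with other genes.

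Hist1h2bk and Hist1h2bc, both for H2B, also did not overlap between groups. Hist1h2bk had 3.08, 3.21 and 3.44 FPKM at 100 nM and 2.80, 2.67 and 2.43 FPKM at 0 nM (limma adjusted p = 0.0904). Hist1h2bc had 3.24, 3.39 and 3.98 FPKM at 100 nM and 2.97, 2.94 and 2.57 FPKM at 0 nM (limma adjusted p = 0.139). All 5 H2B genes tested had the higher mean at 100 nM (4 of 5 with quantile normalization, without 0 nM replicate 3, without 100 nM replicate 1, without 100 nM replicate 3 and without replicate 3 of both groups), against 6175 of all 11741 genes tested, among them Hist1h2bg at 2.66 ± 0.41 FPKM at 100 nM and 2.04 ± 0.38 FPKM at 0 nM (SD, n = 3 each), a gene named after its values were seen. None of the 5 passed the test, and the difference in Hist1h2bj was only 0.02 ± 0.19 on the log2 scale (SE). Hist1h2bk shared 75.3%, Hist1h2bj 67.2%, Hist1h2bg 56.3%, Hist1h2bc 33.5% and Hist2h2be 2.8% of their words with other genes. The directions of these 5 genes are therefore not all separate observations. Among the 12 H2A genes tested, 5 had the higher and 7 the lower mean at 100 nM. Hist1h2ab had 0.90, 1.72 and 1.79 FPKM at 100 nM and 0.83, 0.72 and 1.02 FPKM at 0 nM, where 1 library at 100 nM fell within the range of 0 nM. Hist1h2an was lower without overlap, at 1.55, 1.28 and 1.54 FPKM at 100 nM and 2.34, 1.80 and 1.57 FPKM at 0 nM, with a limma adjusted p of 0.287, and was named after its values were seen. Hist1h3c, for H3, had 2.93, 2.37 and 2.81 FPKM at 100 nM and 2.33, 2.69 and 2.65 FPKM at 0 nM, and the groups overlapped.

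Summed over the 65 genes, replication-dependent histone RNA was 83.2, 84.2 and 87.0 FPKM at 100 nM and 76.8, 80.6 and 76.4 FPKM at 0 nM. The 3 sums at 100 nM were all above the 3 at 0 nM, and the ratio of means was 1.09 (log2 ratio 0.12). No test was made on a sum over these genes. Without replicate 3 of both groups the log2 ratio was 0.09. The H2A genes summed to 25.9, 26.0 and 27.0 FPKM at 100 nM and 23.7, 23.6 and 22.6 FPKM at 0 nM, and the H2B genes to 16.5, 17.5 and 19.7 FPKM at 100 nM and 15.5, 15.1 and 13.3 FPKM at 0 nM. These 2 types did not overlap between groups. The H1, H3 and H4 sums did. H1 genes summed to 11.28, 10.66 and 12.41 FPKM at 100 nM and 12.23, 12.32 and 11.98 FPKM at 0 nM. H3 genes summed to 15.9, 16.4 and 13.8 FPKM at 100 nM and 14.1, 15.4 and 15.5 FPKM at 0 nM, and H4 genes to 13.5, 13.6 and 14.2 FPKM at 100 nM and 11.22, 14.12 and 13.03 FPKM at 0 nM. The 7 genes on chromosome 3 gave 2.99, 4.29 and 3.31 FPKM at 100 nM and 2.30, 1.92 and 2.50 FPKM at 0 nM, again without overlap. Only Hist2h2be of them reached a mean of 1 FPKM over the 6 libraries, and 5 of the 7 had the higher mean at 100 nM. Among those 5, Hist2h2aa1 averaged 1.08 FPKM at 100 nM and 0.443 FPKM at 0 nM. It shared 100% of its words with other genes, so its part in this sum is uncertain.

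**Figure D2:**
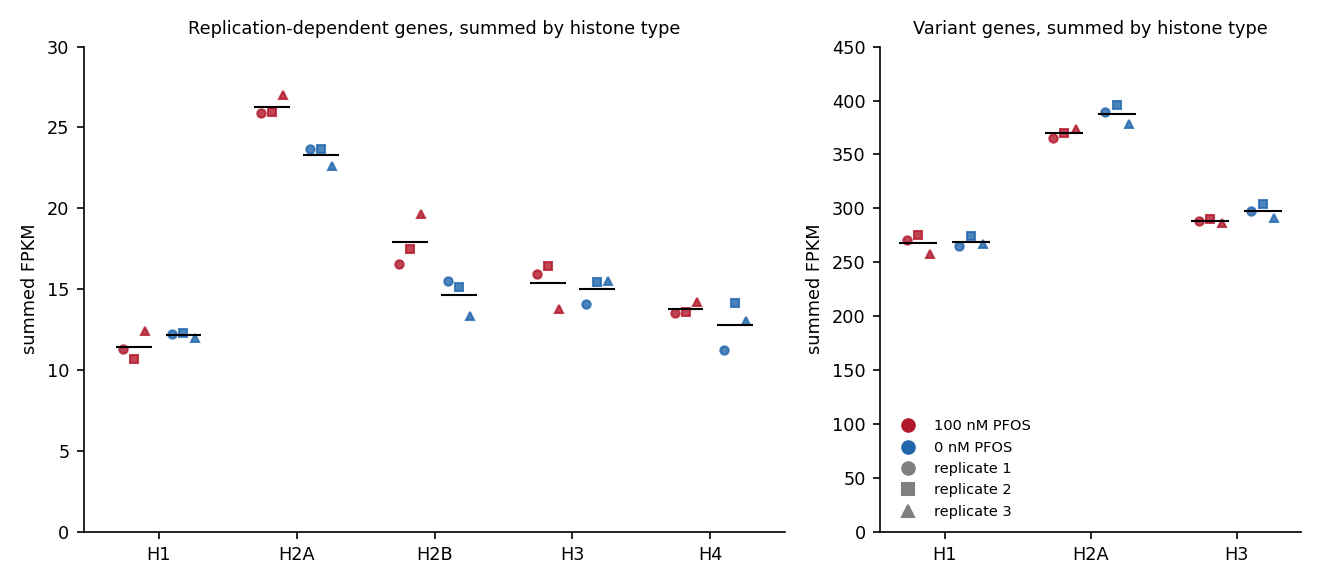
Summed FPKM by histone type (linear axes from 0) for the 65 replication-dependent genes at left and the 17 variant genes at right. Each point is a library, 100 nM PFOS in red left of 0 nM PFOS in blue, with group means as black lines. The H2A and H2B sums of replication-dependent genes lie higher at 100 nM without overlap, and the H2A and H3 variant sums lie lower at 100 nM without overlap. The nearest pair of H3 variant sums is almost equal, at 290.38 FPKM at 100 nM and 290.89 FPKM at 0 nM.

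Among the variant genes, the 3 most abundant mRNAs were H1f0, H2afz and H3f3b, each over 200 FPKM in every library. H1f0, which encodes the linker histone H1.0 of slowly dividing and differentiated cells, had 270, 275 and 258 FPKM at 100 nM and 265, 275 and 267 FPKM at 0 nM. H2afz, 1 of 2 genes for H2A.Z, a variant placed at promoters, had 245, 247 and 251 FPKM at 100 nM and 262, 268 and 254 FPKM at 0 nM. It shared 42.3% of its words with other genes, with 33.5% found in Tmcc1. H1f0 was above H2afz in each library, by little in some, though the ranges of these 2 genes overlapped over the 6 libraries. H3f3b, 1 of 2 genes for the replacement histone H3.3, had 227, 224 and 221 FPKM at 100 nM and 238, 240 and 232 FPKM at 0 nM, below the lowest H2afz value in every library.

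A gap followed. H2afx had 66.1, 66.3 and 66.6 FPKM at 100 nM and 66.4, 66.6 and 65.0 FPKM at 0 nM, the smallest SE of the variant genes tested, with a difference of 0.01 ± 0.02 on the log2 scale (SE). H3f3a, the other H3.3 gene, had 55.5, 57.8 and 58.2 FPKM at 100 nM and 54.6, 58.9 and 52.6 FPKM at 0 nM. In each library it was below H2afx and far below H3f3b. H2afv, the other H2A.Z gene, had 19.8, 20.7 and 20.4 FPKM at 100 nM and 22.4, 24.5 and 22.6 FPKM at 0 nM. H2afy, for macroH2A1, a large variant with a macrodomain found on the inactive X and other silent chromatin, had 19.3, 18.8 and 18.2 FPKM at 100 nM and 21.4, 21.4 and 20.3 FPKM at 0 nM. H2afv was above H2afy in each library, though their ranges overlapped over the 6 libraries. H2afj, for H2A.J, had 15.0, 16.7 and 16.6 FPKM at 100 nM and 16.2, 14.8 and 16.1 FPKM at 0 nM.

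The remaining protein-coding variants were near 0. H2afy2, for macroH2A2, averaged 0.280 FPKM at 100 nM and 0.393 FPKM at 0 nM. Its annotation overlaps Aifm2 on the other strand, and whether strand was used in quantification is not given in the sources used here. H1fx, for the linker histone H1.10, averaged 0.10 FPKM at 100 nM and 0.14 FPKM at 0 nM. H1foo, the oocyte linker histone, was above 0 in 1 library, at 0.02 FPKM.

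**Figure D3:**
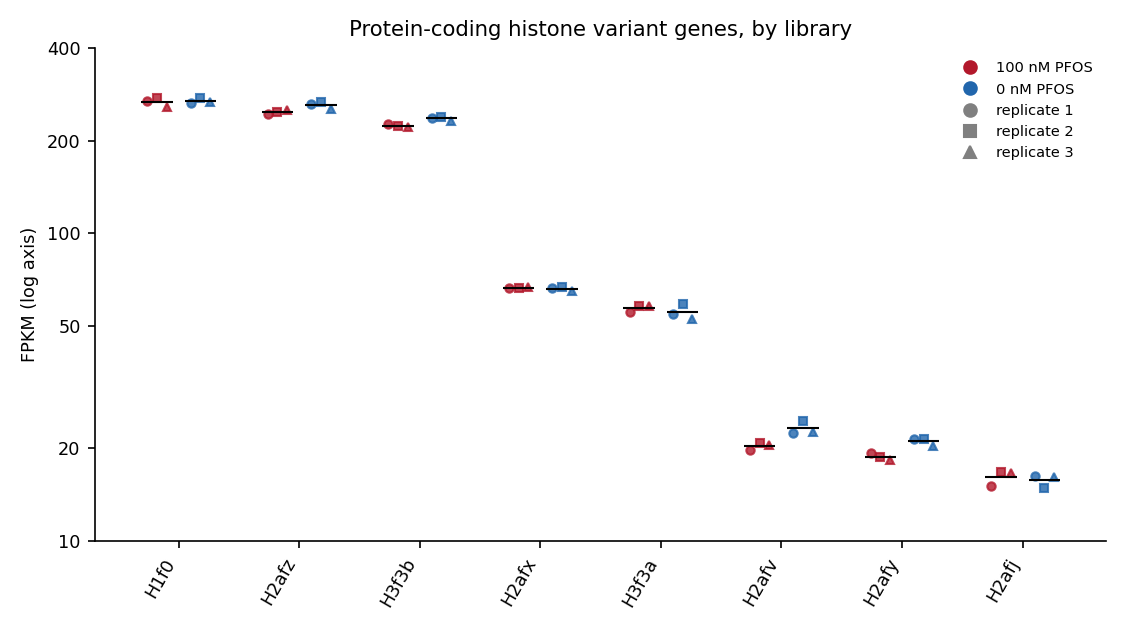
FPKM (log axis) of the 8 protein-coding histone variant genes that averaged 1 FPKM or more, ordered by mean. Each point is a library, 100 nM PFOS in red left of 0 nM PFOS in blue, with group means as black lines. H2afz, H3f3b, H2afv and H2afy lie lower at 100 nM without overlap, none of the 8 passed the test, and H1f0, H2afx, H3f3a and H2afj overlap between groups.

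None of the 8 protein-coding variant genes tested was called at an adjusted p under 0.05 in limma, against 2.46% called lower and 1.69% called higher over all genes. At an unadjusted p under 0.05 there were 4, all lower, against 20.7% of all genes in either direction. The same 4, H2afz, H3f3b, H2afv and H2afy, were lower without overlap between groups, against 13.3% of all genes. H2afy was nearest to the threshold, with a difference of -0.16 ± 0.03 on the log2 scale (SE) and an adjusted p of 0.0524. H2afv followed with -0.18 ± 0.04 and 0.0607, H3f3b with -0.08 ± 0.02 and 0.0877, and H2afz with -0.08 ± 0.02 and 0.145, all by limma. With protein-coding genes alone in the fit, the adjusted p became 0.0380 for H2afy and 0.0431 for H2afv, and both were then called lower. In FPKM the 4 means at 100 nM were 0.892, 0.877, 0.947 and 0.948 times those at 0 nM, in the order H2afy, H2afv, H3f3b and H2afz. Their differences stayed below 0 under all 17 alternatives.

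The genes lying next to these 4 were also examined. Of 44 other tested genes that start within 2.5 Mb of H2afy (chr13:56073619-56135631), 37 had the lower mean at 100 nM and 10 were called lower, with a median difference of -0.12. Around H2afz (chr3:137864487-137866922), 15 of 17 were lower and 2 were called lower, with a median of -0.07. Around H2afv (chr11:6427229-6444443) 25 of 48 were lower, and around H3f3b (chr11:116021912-116027962) 38 of 82. Over all genes tested, 5566 of 11741 had the lower mean and 2.46% were called lower. So H2afy and H2afz lie among genes that were mostly lower, while around H2afv and H3f3b the shares with the lower mean were near that of all genes. The part of position in the differences of H2afy and H2afz was not tested.

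Summed over the 17 variant genes, variant RNA was 924, 935 and 918 FPKM at 100 nM and 952, 974 and 936 FPKM at 0 nM, without overlap and with a ratio of means of 0.970. The nearest pair was almost equal, at 935.45 FPKM at 100 nM and 936.08 FPKM at 0 nM. Variant H2A genes summed to 365, 370 and 373 FPKM at 100 nM and 389, 396 and 378 FPKM at 0 nM. Variant H3 genes summed to 289, 290 and 287 FPKM at 100 nM and 297, 304 and 291 FPKM at 0 nM, with the nearest pair at 290.38 and 290.89 FPKM. Variant H1 genes, of which H1f0 gave nearly all, summed to 270, 275 and 258 FPKM at 100 nM and 265, 275 and 267 FPKM at 0 nM, and overlapped.

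The only histone member called was H3f3c, which rose, 1 of the 11 variant genes tested, against 1.69% called higher over all genes. It had 3.98, 5.07 and 4.76 FPKM at 100 nM and 2.22, 1.93 and 2.74 FPKM at 0 nM. Every library at 100 nM was above every library at 0 nM, and the means were 4.60 ± 0.56 FPKM and 2.30 ± 0.41 FPKM in that order (SD, n = 3 each), a ratio of 2.00. The difference was 0.77 ± 0.11 on the log2 scale (SE) with an adjusted p of 0.0191 in limma. The call was lost without 0 nM replicate 1 (adjusted p = 0.0764), without 0 nM replicate 2 (0.0700), without 100 nM replicate 2 (0.0749), without 100 nM replicate 3 (0.0547) and without replicate 3 of both groups (0.0720), each by limma, and also with no filter on low values (0.0654). The difference stayed between 0.69 and 0.98 under all 16 alternatives that could include the gene.

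H3f3c is annotated as a processed pseudogene, an intronless copy of an mRNA, at chr2:119665626-119666036 on the minus strand. Its 411 bases were compared with the 411-base coding sequence of H3f3a to see whether reads can separate them. The only differences were 4 substitutions, G8T, G76A, T135C and C144A, with the H3f3a base first, the position counted from 1 at the A of the start codon, and the H3f3c base last (99.0% identity). H3f3c differed from H3f3b by 97 substitutions (76.4% identity). All 4 substitutions lie in the first 150 bases, which are shown with the substituted bases in capitals.

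H3f3c: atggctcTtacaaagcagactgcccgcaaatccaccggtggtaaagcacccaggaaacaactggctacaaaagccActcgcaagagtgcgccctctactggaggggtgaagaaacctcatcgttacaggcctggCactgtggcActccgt
H3f3a: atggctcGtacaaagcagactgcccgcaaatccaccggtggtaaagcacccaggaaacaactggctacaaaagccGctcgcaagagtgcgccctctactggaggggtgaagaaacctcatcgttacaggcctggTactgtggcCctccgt

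Of the 381 words of 31 bases in H3f3c, 33 occurred in no other gene, and 79.3% occurred in H3f3a. The FPKM of H3f3c is therefore uncertain, since most of its words also occur in H3f3a. The share of reads from H3f3c that would also fit H3f3a was not measured. The level of H3f3a was 57.1 ± 1.45 FPKM at 100 nM and 55.4 ± 3.19 FPKM at 0 nM (SD, n = 3 each). The other processed copies of H3f3a overlapped between groups. H3f3a-ps2 had 1.28, 2.45 and 1.77 FPKM at 100 nM and 1.76, 2.11 and 2.11 FPKM at 0 nM, and differed from H3f3a by 5 substitutions. H3f3a-ps1 had 1.22, 1.36 and 0.92 FPKM at 100 nM and 0.89, 1.00 and 1.59 FPKM at 0 nM. Within 2.5 Mb of H3f3c, 33 of 68 other tested genes had the higher mean at 100 nM and 0 were called higher, against 6175 of 11741 and 1.69% over all genes tested. H2afy3, a processed copy in the macroH2A family, was at 0.03, 0.11 and 0.05 FPKM at 100 nM and 0.14, 0.34 and 0.16 FPKM at 0 nM, too low to be tested in the filtered fit. It lies within Pvt1 on the other strand. The other non-coding members, H2af-ps and H3f3aos, averaged under 0.2 FPKM in each group.

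**Figure D4:**
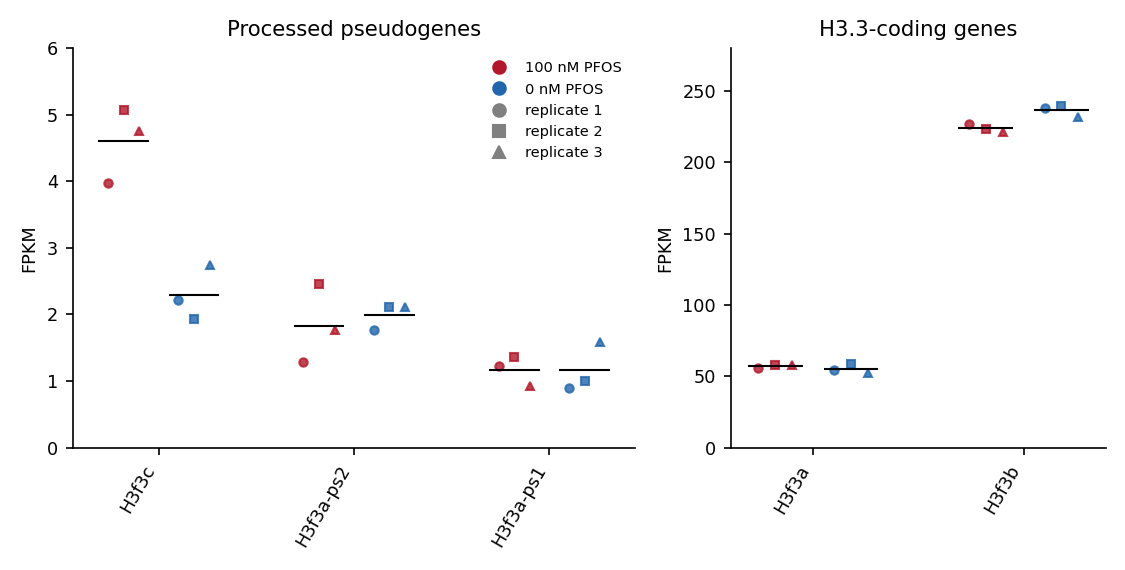
FPKM (linear axes from 0) of 3 processed copies of H3f3a at left and of both H3.3-coding genes at right. Each point is a library, 100 nM PFOS in red left of 0 nM PFOS in blue, with group means as black lines. H3f3c lies between 3.98 and 5.07 FPKM at 100 nM, above 1.93 to 2.74 FPKM at 0 nM, the other copies and H3f3a overlap, and H3f3b lies slightly lower at 100 nM.

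Set against all genes tested, the histone genes fell in different parts of the range of levels. Replication-dependent genes lay near the low end, where SEs are wide, and the coding variants mostly at the high end, where a difference of 0.08 was about 4 times its SE in H3f3b and about 3 times in H2afz.

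**Figure D5:**
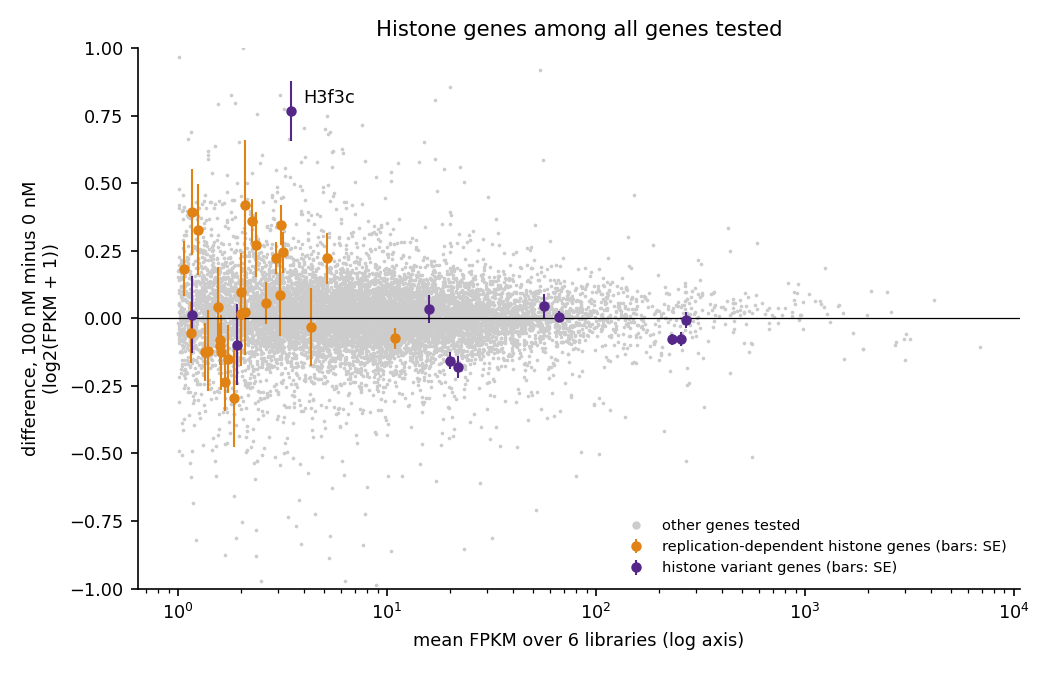
Difference between 100 nM and 0 nM PFOS in log2(FPKM + 1) against mean FPKM over the 6 libraries (log axis) for 11741 genes in grey, with the 27 replication-dependent and 11 variant histone genes tested in colour and bars of 1 SE. The vertical range leaves out 21 genes beyond 1 on the log2 scale. H3f3c, at 0.77, is the only histone gene called, and the replication-dependent genes scatter on both sides of 0 with wide bars.

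The genes that make, trim, decay and deposit histones were described from lists taken from general knowledge. Of 24 genes for histone gene transcription and 3' processing, 23 were tested, 0 were called higher and 2 lower, against 1.69% and 2.46% of all genes, with a median difference of -0.04. Ccne1, cyclin E1, whose kinase activates the histone gene coactivator NPAT, fell to 4.81, 4.74 and 5.47 FPKM at 100 nM, against 7.34, 6.91 and 6.52 FPKM at 0 nM (-0.40 ± 0.06 log2, SE, limma adjusted p = 0.0240). Ncbp2, a subunit of the nuclear cap-binding complex, fell to 21.1, 21.3 and 20.9 FPKM at 100 nM, against 23.5, 23.6 and 25.6 FPKM at 0 nM (-0.19 ± 0.04 log2, SE, limma adjusted p = 0.0448). Tested genes with roles in histone mRNA alone were not called. Zfp473, of the same list, averaged 0.470 FPKM at 100 nM and 0.437 FPKM at 0 nM and was not tested. Slbp, the stem-loop binding protein, had 17.16, 17.08 and 16.02 FPKM at 100 nM and 17.05, 17.66 and 17.00 FPKM at 0 nM, and Npat had 8.54, 8.89 and 8.27 FPKM at 100 nM and 9.34, 9.94 and 9.66 FPKM at 0 nM (limma adjusted p = 0.0771).

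Of 10 genes for histone mRNA decay, 8 were found under their symbols and tested. At an adjusted p under 0.05 limma called 0, against 4.15% of all genes. At an unadjusted p under 0.05 there was 1, against 20.7% of all genes. That was Lsm1, of the cytoplasmic LSM ring, at 8.73, 8.35 and 8.82 FPKM at 100 nM and 9.00, 9.31 and 9.38 FPKM at 0 nM. Dcp2, the decapping enzyme, averaged 4.18 FPKM at 100 nM and 4.62 FPKM at 0 nM. Of 30 genes for histone chaperones and deposition, 30 were tested, 0 were called higher and 1 lower, against 1.69% and 2.46% of all genes. Hira, which deposits H3.3 outside replication, fell to 14.19, 14.85 and 14.04 FPKM at 100 nM, against 15.99, 16.12 and 16.30 FPKM at 0 nM (-0.16 ± 0.03 log2, SE, limma adjusted p = 0.0392). It shared 43.1% of its words with another gene, Gm28539. Nasp, a chaperone of soluble H3 and H4, had 25.6, 25.2 and 24.7 FPKM at 100 nM and 26.8, 27.5 and 27.0 FPKM at 0 nM (limma adjusted p = 0.0703). Cenpa, the centromeric H3 variant, which the symbol rule does not take, had 24.8, 24.7 and 23.9 FPKM at 100 nM and 25.7, 25.5 and 26.3 FPKM at 0 nM (limma adjusted p = 0.163).

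Of 25 genes for DNA synthesis and S phase, 25 were tested, 0 were called higher and 3 lower, against 1.69% and 2.46% of all genes, with a median difference of -0.02. Beside Ccne1 these were Mcm4, of the replicative helicase, and Cdc45, its cofactor. Mcm4 fell to 55.4, 55.0 and 53.5 FPKM at 100 nM, against 62.4, 62.7 and 62.1 FPKM at 0 nM (-0.19 ± 0.02 log2, SE, limma adjusted p = 0.00817). Cdc45 fell to 16.6, 16.1 and 15.6 FPKM at 100 nM, against 20.2, 18.1 and 19.0 FPKM at 0 nM (-0.23 ± 0.04 log2, SE, limma adjusted p = 0.0414). Rrm2, a subunit of ribonucleotide reductase, had 102.34, 104.17 and 104.72 FPKM at 100 nM and 98.87, 96.32 and 95.30 FPKM at 0 nM. Its limma adjusted p was 0.0587, and it was called higher with quantile normalization and with protein-coding genes only, a gene named after its values were seen. Mcm4, Cdc45, Hira and Ncbp2 all lie on chromosome 16, between 15623897 and 31958472. Among other tested genes starting within 2.5 Mb of each, 40 of 44, 51 of 60, 50 of 59 and 35 of 36 had the lower mean at 100 nM, in the same order of genes. Over all genes tested, 5566 of 11741 had the lower mean. The windows of Mcm4, Cdc45 and Hira overlap one another, so their counts are not separate observations. Around Ccne1, on chromosome 7, 4 of 10 were lower. The part of position in these calls was not tested. Mcm4 kept its call without each single library, while Hira, Cdc45 and Ncbp2 lost it without any 1 of the 6 libraries. Ccne1 lost its call without any 1 library except 100 nM replicate 3, with adjusted p-values of up to 0.0921.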

How the data were processed

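Per the labels' protocols, poly(A) RNA was selected on oligo(dT) beads in repeated rounds, strand was marked with dUTP and both fragment ends were sequenced. The authors deposited FPKM per gene to 2 decimals. fastp, HISAT2 and StringTie and the builds GRCh38 and mm10 come from the submitters' processing notes, with versions not given in the sources used here. Identifiers are mouse: 28350 of 28418 matched GENCODE M21 (GRCm38), 25603 with the same coordinates, including 79 of the 82 members. Depth is unknown, and reads were not recovered, since 25.4% to 27.3% of low values lay within 0.1 of a whole multiple.

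limma 3.58.1 (R 4.3.3) with an intensity trend was fitted to log2(FPKM + 1), 100 nM minus 0 nM, two-sided, over the 11741 genes that averaged 1 FPKM or more. This scale understates the change of low genes. Benjamini-Hochberg adjustment ran over all of them, and a gene was called at an adjusted p under 0.05. The script was checked on simulated data. Sums have no test.

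Members and lists were chosen with earlier results of these data known. Named members are the called ones and, per class, the 8 highest in mean FPKM, the 6 with the smallest p and the 3 just above and below the filter. In each list the called genes and the 2 with the smallest p are named, and other genes were named after their values were seen. Pattern matches and 31-base words used M21 transcripts (Python 3.11.15). Alternatives covered pseudocounts, filters, scalings, gene type, moderation, the replicate block and libraries left out.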

Additional observations from a re-analysis of the deposited data

How the results depend on the processing

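Over all genes 487 were called, and the other fits, whose calls need not be the same genes, gave 204 with no filter, 314 with a filter at 0.1 FPKM, 294 without the intensity trend, 122 to 289 with 1 library left out, whichever of the 6 it was, and 74 without replicate 3 of both groups. For replication-dependent genes the count of 0 became 2 with protein-coding genes only (Hist1h2ae, Hist1h4k) and 0 to 1 with 1 library left out, the 1 being Hist1h2af without 100 nM replicate 1. For variant genes the count of 1 became 0 with no filter, 2 with protein-coding genes only (H2afy, H2afv), 0 to 1 with 1 library left out and 0 without replicate 3 of both groups. Among variant members sharing under 10% of their words it was 0 by construction, since H3f3c, the only one called, shared 91.3%. The processing list's 2 became 0 with no filter, 1 with a filter at 0.1 FPKM, 1 without the trend, 0 to 1 with 1 library left out and 1 without replicate 3 of both groups. The chaperone list's 1 became 0 with no filter, with a filter at 0.1 FPKM, without the trend, with any 1 library left out and without replicate 3 of both groups, and the S phase list's 3 became 1 with no filter, 1 to 2 with 1 library left out and 1 without replicate 3 of both groups. In the S phase list Cdc45 also lost its call with a filter at 0.1 FPKM (adjusted p = 0.0579), without the trend (0.0663) and with quantile normalization (0.0532), each by limma. Rrm2, of the same list, was called higher with quantile normalization and with protein-coding genes only. With no filter more genes share the adjustment and the SEs change as well, and with libraries left out fewer samples enter. The cause of the changed counts was not tested for any setting. Both sums kept their direction under every alternative run.

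Replicate numbers are shared by the groups, but deviations of same-numbered libraries correlated at only -0.033, -0.053 and 0.0065 across genes, so the numbers were not taken as pairs. With the replicate block, 58 genes were called over all genes, 0 replication-dependent, 0 variant (H3f3c, adjusted p = 0.0772 in limma), 0 of the processing list, 0 of the chaperone list and 0 of the S phase list.

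Differences of some named genes, none of them called, changed sign. With 1 library left out, the log2 difference ranged from -0.14 to 0.14 in Hist1h3h, -0.081 to 0.24 in Hist1h2ag, -0.11 to 0.057 in Hist1h2ao, -0.027 to 0.020 in H1f0, -0.0043 to 0.013 in H2afx, -0.0028 to 0.083 in H2afj, -0.25 to 0.049 in H3f3a-ps2 and -0.076 to 0.15 in H3f3a-ps1. Without replicate 3 of both groups it was 0.17 in Hist1h3h, 0.014 in H1f0, -0.0071 in H2afx and -0.0028 in H3f3a. With quantile normalization it was -0.0054 in H3f3a-ps1.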
